A study of Mus musculus with 27 samples.

Results

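Amacrine cells are the interneurons of the inner retina, and 10 genes by which they are recognised (Gad1, Gad2, Slc6a9, Slc32a1, Chat, Slc18a3, Th, Slc17a8, Tfap2a and Tfap2b) were followed through the mouse model of oxygen-induced retinopathy (OIR). They were chosen by symbol as genes known for the cell type, with earlier results of these data known, out of the 40129 genes in the deposited table. All 10 were present and all 10 passed the filter on low values. In the OIR model, pups are kept in high oxygen, which closes part of the young retinal vasculature, and new vessels grow after the return to normal air. The retinas of 27 wild-type C57BL/6 mice (C57BL/6J in the methods of the study) were sequenced, 1 library per mouse from 1 or 2 retinas of that mouse. The groups were OIR mice at postnatal day 14 (OIR p14, n = 6) and day 17 (OIR p17, n = 8) and untreated mice of the same ages (nOIR p14, n = 7, of which 6 were used, and nOIR p17, n = 6). As in the study, nOIR p14 mouse S4 was left out. The mice came from a few litters per group, only 2 in the case of nOIR p17, and which mouse belonged to which litter is not known here.

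Most amacrine cells release an inhibitory transmitter, either GABA or glycine, and shape the signals that pass from bipolar cells to ganglion cells. Small subgroups release a second substance: starburst cells use acetylcholine, and a sparse class uses dopamine. A further class carries the vesicular glutamate transporter VGLUT3. Because whole retinas were sequenced, fewer cells of a type and less RNA per cell cannot be told apart in any value given here.

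The samples carried 17029536 to 33593428 reads on genes, with a median of 30024568 over the 27 mice. Values are normalized reads, which are counts divided by 1 size factor per mouse. Genes were compared by limma on the log2 scale after adding 1, over 27137 genes that averaged 1 or more normalized reads, and a gene was called at a Benjamini-Hochberg adjusted p under 0.05. Rod genes, the defining transcripts of the mouse retina, summed to at least 858081 normalized reads over 6 genes in every group's lowest mouse. Lens genes, which mark carried-over tissue, varied within each group, from 4.44 to 17946 normalized reads over 5 genes in nOIR p14 and from 246 to 31572 in OIR p17. Over these 5 genes the log2 fold change had a median of 1.47 at p14 and 1.66 at p17, and at each age 0 of 5 were called by limma, edgeR or DESeq2 and 0 had an unadjusted p under 0.05.

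To give the sequence context of the genes that are compared below, the 250 bases upstream of a RefSeq transcription start are printed 5′ to 3′ for Gad1, Slc6a9 and Slc17a8, which fell at both ages, for Gad2, the sister gene of Gad1, and for Chat and Slc18a3, which lie in 1 shared locus. Positions refer to GRCm38.p6, which is not the build to which the reads were aligned. Capitals mark 3 motifs on either strand: ACGTG, the core bound by hypoxia-inducible factors, GCGTG, a variant of it, and GCCNNNGGC, a palindrome bound by AP-2 factors such as Tfap2a and Tfap2b. For Slc6a9 and Slc17a8, which have several listed starts, the first one is shown.
Gad1 (chr2:70561879-70562128, plus strand): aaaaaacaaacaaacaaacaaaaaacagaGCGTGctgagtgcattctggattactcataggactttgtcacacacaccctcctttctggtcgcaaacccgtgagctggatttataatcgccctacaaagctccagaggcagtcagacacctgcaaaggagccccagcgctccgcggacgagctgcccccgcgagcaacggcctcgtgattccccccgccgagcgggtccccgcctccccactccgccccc
Gad2 (chr2:22622077-22622326, plus strand): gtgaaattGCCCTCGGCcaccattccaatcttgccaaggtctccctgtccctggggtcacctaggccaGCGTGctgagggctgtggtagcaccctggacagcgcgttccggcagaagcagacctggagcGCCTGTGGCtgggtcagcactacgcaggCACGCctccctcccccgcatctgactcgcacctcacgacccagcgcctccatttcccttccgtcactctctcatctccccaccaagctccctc
Slc6a9 (chr4:117835008-117835257, plus strand): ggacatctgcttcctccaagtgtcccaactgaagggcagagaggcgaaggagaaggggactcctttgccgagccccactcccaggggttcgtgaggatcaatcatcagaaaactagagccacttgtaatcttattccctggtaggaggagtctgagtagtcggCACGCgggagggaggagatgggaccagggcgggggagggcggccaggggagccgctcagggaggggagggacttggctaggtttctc
Slc17a8 (chr10:89621250-89621499, minus strand): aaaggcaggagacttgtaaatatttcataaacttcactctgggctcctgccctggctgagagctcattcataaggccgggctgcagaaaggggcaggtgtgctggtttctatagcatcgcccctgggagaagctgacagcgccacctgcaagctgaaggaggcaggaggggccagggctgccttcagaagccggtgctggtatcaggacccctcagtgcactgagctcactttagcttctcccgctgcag
Chat (chr14:32465910-32466159, minus strand): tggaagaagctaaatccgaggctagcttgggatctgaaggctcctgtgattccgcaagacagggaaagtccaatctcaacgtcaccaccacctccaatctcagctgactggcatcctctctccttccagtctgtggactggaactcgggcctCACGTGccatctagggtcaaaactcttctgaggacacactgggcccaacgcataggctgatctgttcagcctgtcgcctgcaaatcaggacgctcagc
Slc18a3 (chr14:32464851-32465100, minus strand): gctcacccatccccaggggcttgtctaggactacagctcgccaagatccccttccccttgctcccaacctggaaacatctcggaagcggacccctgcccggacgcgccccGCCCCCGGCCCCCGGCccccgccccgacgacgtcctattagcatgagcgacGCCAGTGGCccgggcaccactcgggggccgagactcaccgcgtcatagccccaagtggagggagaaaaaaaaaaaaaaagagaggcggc

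All 10 genes had at least 1 RefSeq start, and together they had 14 windows of this length. The ACGTG core was in 1 of the 14 windows, that of Chat, where CACGTG holds it once on each strand, and in 16.6% of 32851 RefSeq mouse promoter windows of the same length. The GCGTG variant was in 7 of the 14 windows, including those of Gad1 and Gad2 and all listed starts of Slc6a9, and in 28.2% of all windows. GCCNNNGGC was in 2 of the 14 windows, those of Gad2 and Slc18a3, and in 13.7% of all windows. No capitals stand in the Slc17a8 window, which says only that these letters are not in those 250 bases. These matches describe the sequence and were not tested for binding.

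Per kilobase of exon, the 12 nOIR mice gave an order of levels that was led by Gad1 and Slc6a9, both genes of inhibitory transmission. Gad1 averaged 1314 normalized reads per kilobase (SD 152), above every value of Slc6a9, which averaged 744 (SD 77.5). Tfap2b followed with 529, overlapping Slc6a9 and lying above all values of Gad2. Gad2 (300.2), Slc18a3 (273), Slc32a1 (198) and Chat (166) followed, and each of these overlapped the next down to Chat. Th (70.3), Tfap2a (62.5) and Slc17a8 (51.2) were lowest, and all Th values lay below those of Chat. Th overlapped Tfap2a, and Tfap2a overlapped Slc17a8. Exon lengths came from another annotation than the one used for counting. Exon bases shared with other genes were kept in these lengths, among them 27.8% of Slc6a9 (shared with Ccdc24) and 24.9% of Slc32a1 (shared with Gm14205). Reads in such bases may not have been counted for either gene. What this did to the places of Slc6a9 and Slc32a1, including the gap between Gad1 and Slc6a9, was not tested.

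OIR and nOIR mice of the same age were compared to ask how the amacrine genes stood while parts of the retina were avascular at p14 and under neovascularization at p17. At p14, 3 of the 10 genes fell (Slc6a9, Gad1 and Slc17a8) and none rose, while 2.91% of all genes tested were called lower, 3.18% higher and 6.09% in either direction. At p17, 5 of the 10 fell (Gad1, Slc6a9, Slc17a8, Slc18a3 and Chat) and none rose, against 5.12% of all genes called lower, 7.39% higher and 12.5% in either direction. At an unadjusted p under 0.05 the limma counts were 6 of 10 at p14 (17% of all genes) and 7 of 10 at p17 (23.3% of all genes), all lower. The median log2 fold change of the 10 genes was -0.37 at p14 and -0.36 at p17, compared with 0.02 and -0.02 over all genes tested. With the lens gene Cryaa as a covariate, 3 of the 10 were called at p14 (3.13% of all genes lower) and 4 at p17 (4.83% lower). When each mouse was rescaled to the same total, the p17 calls of Chat (limma adjusted p = 0.128) and Slc18a3 (adjusted p = 0.0599) were lost. In that fit 2.24% of all genes were called lower and 6% in either direction at p14, and 3.55% and 12.4% at p17. Both calls were also lost without nOIR p17 mouse S5 (limma adjusted p = 0.0813 and 0.0505). Without OIR p14 mouse S2, Slc18a3 (limma adjusted p = 0.0246) and Tfap2a (adjusted p = 0.0186) were called at p14 as well (2.9% of all genes lower). None of the 10 also passed a log2 fold change beyond 2 in either direction, a size that 0.884% of all genes reached at p14 and 2.07% at p17.

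**Figure D1:**
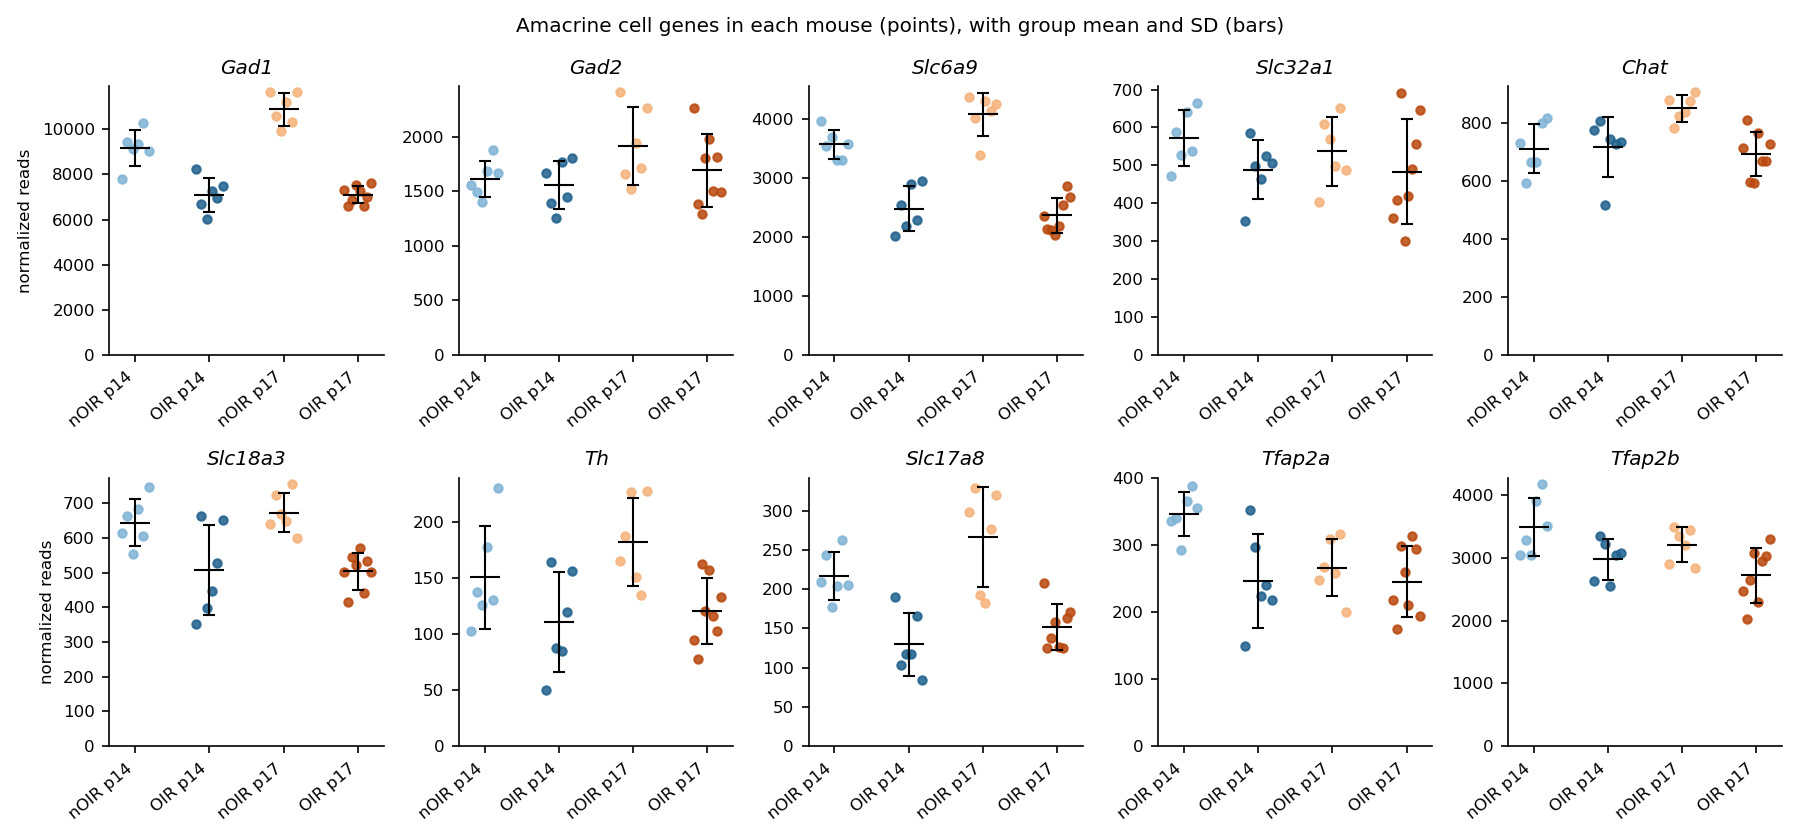
Normalized reads of the 10 amacrine genes (y axis, linear from 0) in each of the 26 mice used, by group (x axis), with bars for the group mean and SD. At p17 the OIR mice lie below all nOIR mice for Gad1, Slc6a9 and Slc18a3, while the groups overlap widely for Gad2 and Slc32a1.

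Gad1 and Gad2 encode the 2 forms of glutamate decarboxylase, GAD67 and GAD65, which make GABA. Gad1 ranged from 7792 to 10304 normalized reads in nOIR p14 (median 9223) and from 6009 to 8229 in OIR p14 (median 7108). At p17 it ranged from 9908 to 11646 in nOIR (median 10914) and from 6611 to 7603 in OIR (median 7148). At p14 the groups touched, with 5 of 6 OIR mice below all controls, and at p17 all 8 OIR mice lay below all 6 controls. The log2 fold change of Gad1 was -0.37 (SE 0.076, limma adjusted p = 0.00203) at p14, where it fell by 22.7%, and -0.62 (SE 0.071, adjusted p = 1.72e-07) at p17, where it fell by 34.7%.

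Gad2 ranged from 1401 to 1877 normalized reads in nOIR p14 (median 1610) and from 1254 to 1802 in OIR p14 (median 1558). The range at p17 was from 1517 to 2405 in nOIR (median 1824) and from 1288 to 2262 in OIR (median 1654). The Gad2 groups overlapped at both ages. Its log2 fold change was -0.06 (SE 0.13, limma adjusted p = 0.899) at p14 and -0.18 (SE 0.12, adjusted p = 0.408) at p17. Its direction at p14 was not stable, since the value was 0.00072 without OIR p14 mouse S3.

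The ratio of Gad1 to Gad2 within each mouse was therefore compared directly. This and the other ratios were chosen after the levels had been seen, and 12 tests were made (6 ratios at 2 ages) by exact two-sided permutation of the mice. On the log2 scale the ratio averaged 2.51 (SD 0.14, n = 6) in nOIR p14 and 2.20 (SD 0.12, n = 6) in OIR p14, where every OIR mouse lay below every control. The difference of -0.31 (SE 0.075) had an exact permutation p = 0.0022, the smallest that 6 against 6 mice allow, and an adjusted p = 0.024 over the 12 tests. At p17 the ratio averaged 2.52 (SD 0.17, n = 6) in nOIR and 2.09 (SD 0.25, n = 8) in OIR, and 6 of 8 OIR mice lay below all controls. That difference of -0.43 (SE 0.11) had an exact permutation p = 0.004 and an adjusted p = 0.024.

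**Figure D2:**
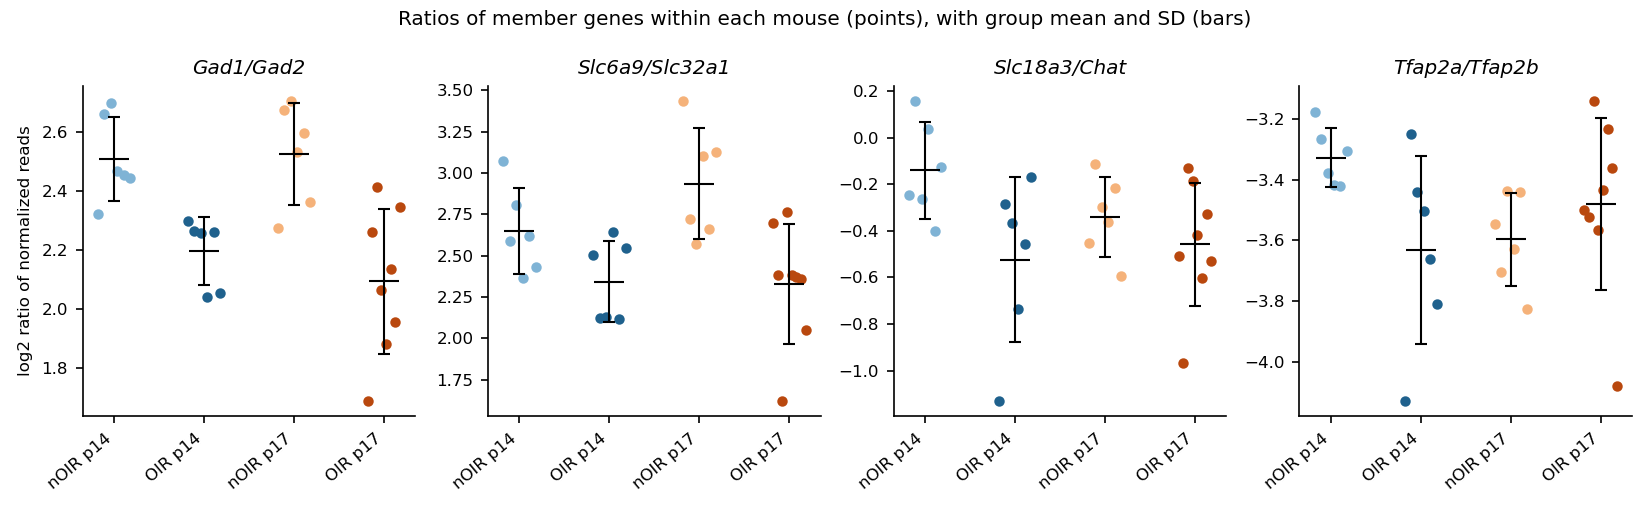
Log2 ratio of normalized reads of 4 gene pairs (y axis, scaled to each pair) in each mouse, by group (x axis), with bars for the group mean and SD. The Gad1 to Gad2 ratio of all 6 OIR p14 mice lies below that of all 6 nOIR p14 mice, and OIR and nOIR mice overlap at both ages for the Tfap2a to Tfap2b ratio.

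Slc6a9 encodes GLYT1, the glycine transporter of glycinergic amacrine cells, and Slc32a1 encodes VIAAT, which loads both GABA and glycine into vesicles. Slc6a9 ranged from 3306 to 3970 normalized reads in nOIR p14 (median 3564) and from 2010 to 2953 in OIR p14 (median 2414). At the later age the values ran from 3392 to 4379 in nOIR (median 4191) and from 2040 to 2858 in OIR (median 2264). It was the only amacrine gene whose OIR and nOIR mice did not overlap at either age. Its log2 fold change was -0.54 (SE 0.099, limma adjusted p = 0.000666) at p14, where it fell by 31.0%, and -0.79 (SE 0.093, adjusted p = 1.99e-07) at p17, where it fell by 42.3%. In the GENCODE M21 annotation, 27.8% of the exon bases of Slc6a9 are shared with Ccdc24 on the opposite strand, and the counting did not use strand. Ccdc24 had a log2 fold change of -0.48 (limma adjusted p = 0.018) at p14 and of -0.32 (adjusted p = 0.0769) at p17, and its part in the Slc6a9 result was not tested.

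Slc32a1 ranged from 471 to 664 normalized reads in nOIR p14 (median 564) and from 354 to 585 in OIR p14 (median 502). At p17 it ranged from 404 to 652 in nOIR (median 535) and from 299.7 to 690.1 in OIR (median 454), so that the highest and the lowest mouse of that age were both OIR mice. Its log2 fold change was -0.23 (SE 0.17, limma adjusted p = 0.549) at p14 and -0.18 (SE 0.16, adjusted p = 0.547) at p17. An antisense gene, Gm14205, shares 24.9% of the exon bases of Slc32a1 in GENCODE M21 and averaged 0.388 normalized reads.

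The log2 ratio of Slc6a9 to Slc32a1 fell at p17, from 2.94 (SD 0.34, n = 6) to 2.33 (SD 0.36, n = 8), with an exact permutation p = 0.006 and an adjusted p = 0.024 over the 12 ratio tests. At p14 the difference in that ratio was -0.30 (exact permutation p = 0.063, adjusted p = 0.107). The ratio of Gad1 to Slc32a1 differed by -0.14 at p14 (exact permutation p = 0.422, adjusted p = 0.422) and by -0.43 at p17 (exact permutation p = 0.071, adjusted p = 0.107). The ratio of Slc6a9 to Gad1, the leading genes of glycine and GABA handling, differed by -0.17 at p14 (exact permutation p = 0.316, adjusted p = 0.421) and by -0.18 at p17 (exact permutation p = 0.054, adjusted p = 0.107).

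Chat makes acetylcholine and Slc18a3, which lies within the span of the Chat gene and shares none of its exon bases, encodes VAChT, the transporter that fills cholinergic vesicles. In the retina, starburst amacrine cells are the cells known for both. Chat ranged from 593 to 815 normalized reads in nOIR p14 (median 697) and from 515 to 806 in OIR p14 (median 739). The range at p17 was from 781 to 907 in nOIR (median 856) and from 592 to 811 in OIR (median 691). Only 1 of 8 OIR p17 mice reached the range of the controls, while the groups overlapped at p14. The log2 fold change of Chat was 0.00 (SE 0.11, limma adjusted p = 0.992) at p14 and -0.30 (SE 0.099, adjusted p = 0.0426) at p17, where it fell by 18.8%. The p17 call of Chat was close to the threshold: by edgeR it had an adjusted p of 0.0559, and over all alternatives that kept every mouse the adjusted p ranged from 0.0201 to 0.128.

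Slc18a3 ranged from 553 to 747 normalized reads in nOIR p14 (median 638) and from 353 to 662 in OIR p14 (median 487). At the later age the values ran from 600.2 to 754 in nOIR (median 659) and from 414 to 572 in OIR (median 512). The groups overlapped at p14 and did not overlap at p17. Its log2 fold change was -0.38 (SE 0.13, limma adjusted p = 0.0855) at p14 and -0.42 (SE 0.12, adjusted p = 0.0178) at p17, where it fell by 25.2%. At p14 it was called with S4 included (limma adjusted p = 0.0442) and without OIR p14 mouse S2 (adjusted p = 0.0246) or S6 (adjusted p = 0.0295). The p17 call was lost when each mouse was rescaled to the same total (adjusted p = 0.0599) and without nOIR p17 mouse S5 (adjusted p = 0.0505). The log2 ratio of Slc18a3 to Chat differed by -0.38 at p14 (exact permutation p = 0.037, adjusted p = 0.0883 over the 12 ratio tests) and by -0.12 at p17 (exact permutation p = 0.37, adjusted p = 0.422).

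Th encodes tyrosine hydroxylase, the rate-limiting enzyme of dopamine synthesis. Th ranged from 102 to 230.2 normalized reads in nOIR p14 (median 134) and from 50.1 to 164 in OIR p14 (median 104). At p17 it ranged from 135 to 227 in nOIR (median 176) and from 77.2 to 162 in OIR (median 118). The groups overlapped at both ages, and all 8 OIR p17 mice lay below the median of the controls. Its log2 fold change of -0.50 (SE 0.25, limma adjusted p = 0.299) at p14 and of -0.60 (SE 0.23, adjusted p = 0.0888) at p17 did not pass, and its SE was the largest of the 10 genes at both ages. At p17 it was called with quantile normalization (-0.78, limma adjusted p = 0.0211), with only the groups compared (adjusted p = 0.0456) and without OIR p14 mouse S1 (adjusted p = 0.0446).

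Slc17a8 encodes VGLUT3. It ranged from 177 to 263 normalized reads in nOIR p14 (median 207) and from 84.0 to 190.1 in OIR p14 (median 118). The range at p17 was from 183 to 329 in nOIR (median 287) and from 125 to 208 in OIR (median 149). At p14, 5 of 6 OIR mice lay below all controls, and at p17 this held for 7 of 8. The log2 fold change of Slc17a8 was -0.78 (SE 0.19, limma adjusted p = 0.00935) at p14, where it fell by 41.9%, and -0.79 (SE 0.18, adjusted p = 0.0021) at p17, where it fell by 42.1%.

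Tfap2a and Tfap2b encode AP-2 transcription factors of amacrine and horizontal cells. Tfap2a ranged from 292 to 389 normalized reads in nOIR p14 (median 347) and from 149 to 352 in OIR p14 (median 232). At the later age the values ran from 199.7 to 316 in nOIR (median 263) and from 175 to 314 in OIR (median 238). The groups overlapped at both ages. The log2 fold change of Tfap2a was -0.53 (SE 0.17, limma adjusted p = 0.0653) at p14 and -0.13 (SE 0.16, adjusted p = 0.709) at p17. At p14 it was called by DESeq2 (adjusted p = 0.0499), among genes that averaged 10 or more normalized reads (limma adjusted p = 0.0486), and without OIR p14 mouse S2 (adjusted p = 0.0186) or S3 (adjusted p = 0.0483).

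Tfap2b ranged from 3050 to 4176 normalized reads in nOIR p14 (median 3397) and from 2547 to 3356 in OIR p14 (median 3059). At p17 it ranged from 2847 to 3498 in nOIR (median 3278) and from 2026 to 3299 in OIR (median 2800.2). Here too the groups overlapped at both ages. The log2 fold change of Tfap2b was -0.23 (SE 0.11, limma adjusted p = 0.279) at p14 and -0.25 (SE 0.1, adjusted p = 0.121) at p17. The log2 ratio of Tfap2a to Tfap2b differed by -0.30 at p14 (exact permutation p = 0.032, adjusted p = 0.0883 over the 12 ratio tests) and by 0.12 at p17 (exact permutation p = 0.388, adjusted p = 0.422).

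**Figure D3:**
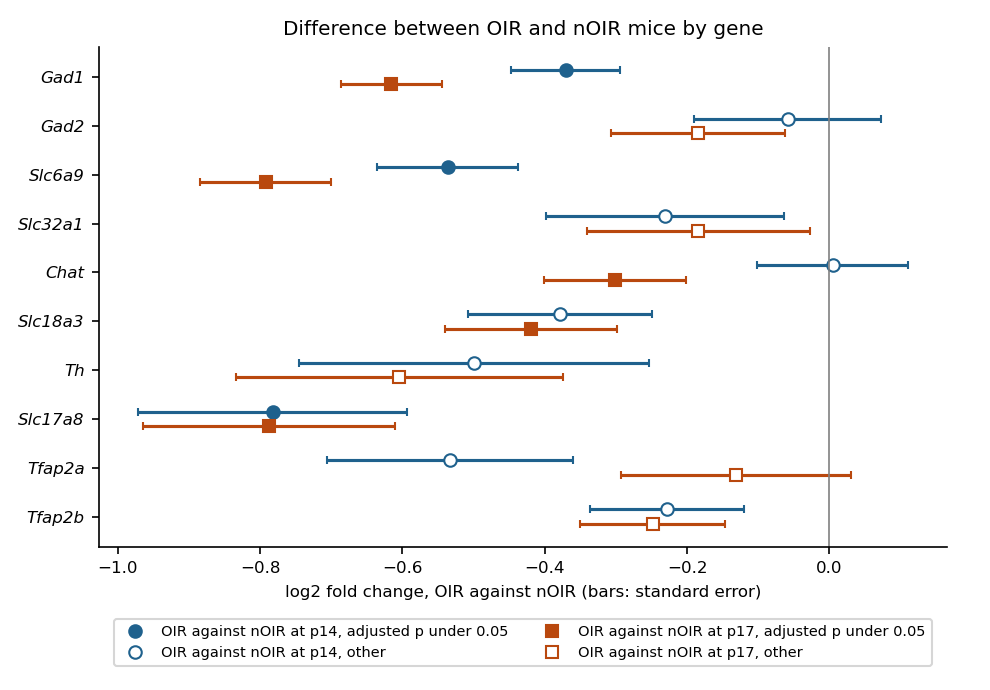
Log2 fold change of OIR against nOIR mice (x axis) for each of the 10 genes (y axis) at p14 (circles) and p17 (squares), with bars for the SE and filled symbols for a limma adjusted p under 0.05. All values are below 0 except that of Chat at p14, and Slc6a9 and Slc17a8 are lowest at p17.

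Groups that did not overlap were found for 1 of the 10 genes at p14, with OIR lower, where 1.86% of all genes tested showed this, and for 3 at p17, where 1.98% did. The change of effect between the ages was also tested. None of the 10 genes was called by limma for the effect at p17 minus the effect at p14 (1.58% of all genes were called), 2 had an unadjusted p under 0.05 (10.7% of all genes), and edgeR and DESeq2 called 0 as well. These 2 were Chat, with a difference of -0.31 (SE 0.15, limma adjusted p = 0.447), and Gad1, with -0.24 (SE 0.1, adjusted p = 0.368). In the opposite direction, Tfap2a had a difference of 0.40 (SE 0.24, limma adjusted p = 0.58). A p17 call without a p14 call, as for Chat and Slc18a3, was therefore not shown to be a change between the ages.

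Between p14 and p17 within nOIR mice, 0 of the 10 genes were called by limma, edgeR or DESeq2 (0.317% of all genes by limma), and 3 had an unadjusted p under 0.05 (7.37% of all genes). These were Gad1 (0.25, SE 0.076, limma adjusted p = 0.216), Chat (0.26, SE 0.11, adjusted p = 0.51) and Tfap2a (-0.39, SE 0.17, adjusted p = 0.61). Within OIR mice, 0 were called by the same tools over the same interval (5.91% of all genes by limma) and 0 had an unadjusted p under 0.05 (18.3% of all genes). The Gad1 mean was 7106 normalized reads in OIR p14 (SD 755) and 7105 in OIR p17 (SD 388), and in nOIR mice it was 9176 (SD 813) and 10893 (SD 724).

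Among mice of the same group, some amacrine genes were high or low together. Over the 26 mice, log2 differences from the group mean were correlated for all 45 pairs, with 100000 permutations within groups, a relation chosen after the levels had been seen. Only 3 of the 45 pairs had an adjusted p under 0.05 by both coefficients. Gad1 and Gad2 had r = 0.64 and rho = 0.65 (permutation p = 0.00034 and 0.00115, adjusted p = 0.00765 and 0.0339). Their r was 0.66 without the 2 mice farthest from the Gad1 median, and from 0.48 to 0.96 in the 4 groups. Tfap2a and Tfap2b had r = 0.62 and rho = 0.64 (permutation p = 0.00139 and 0.00213, adjusted p = 0.0208 and 0.0339). Their r was 0.60 without the 2 mice farthest from the Tfap2a median, and from 0.51 to 0.87 in the groups. Slc18a3 and Th had r = 0.75 and rho = 0.65 (permutation p = 0.00029 and 0.00226, adjusted p = 0.00765 and 0.0339). Their r was 0.61 without the 2 mice farthest from the Slc18a3 median. It ran from -0.54 to 0.97 in the groups, so that this relation did not hold in 1 group. Both genes of a pair come from the same library and share its size factor.

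**Figure D4:**
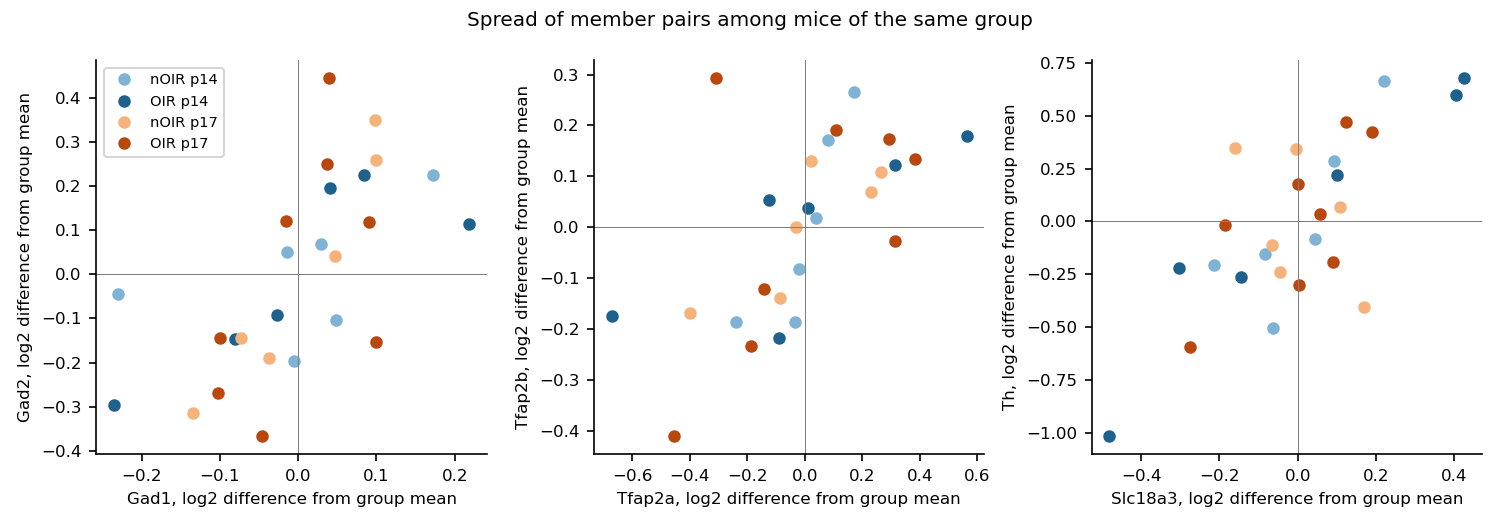
Log2 difference from the group mean for 3 pairs of genes, 1 gene on each axis, with 1 point per mouse coloured by group. Gad1 and Gad2 rise together in every group (r = 0.64 over 26 mice), and the points of Slc18a3 and Th include 1 group with r of -0.54.

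Over all 26 mice, group differences included, the genes whose pattern was most like that of each called gene were sought among 19004 genes that averaged 10 or more normalized reads, as a description. Gad1 was closest to Slc17a6 (r = 0.96), the vesicular glutamate transporter VGLUT2, and among the nearest was also Sh3gl2 (r = 0.94), an endophilin of synaptic vesicle recycling. Slc6a9 was closest to Gabra4 (r = 0.92), Grik1 (r = 0.91), a kainate receptor subunit, and Tspyl4 (r = 0.91). Among the genes nearest to Slc17a8 were Zcchc18 (r = 0.83) and Gm16055 (r = 0.83). Slc18a3 was closest to Pcdh10 (r = 0.89), a protocadherin, Zfp467 (r = 0.84) and Syt3 (r = 0.83), a synaptotagmin. For Chat the closest genes were less alike: Gm45495 (r = 0.80), Mcf2 (r = 0.73) and Egfr (r = 0.71).

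Another 92 genes of the same transmitter pathways and cell class were counted in 8 lists. At p14, 16 of them fell and 2 rose, with a median log2 fold change of -0.18, and at p17, 29 fell and 7 rose, with a median of -0.30. Over all genes tested, 2.91% were called lower and 3.18% higher at p14, and 5.12% lower and 7.39% higher at p17, so that the shares of the 92 genes that rose were near or below those of all genes. Up to 4 called genes per list are named, those with the smallest adjusted p.

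In the list on the handling of inhibitory transmitters, 2 of 12 genes fell and 1 rose at p14 (2.91% and 3.18% of all genes), and 5 fell and 1 rose at p17 (5.12% and 7.39% of all genes). Slc6a11, which encodes the GABA transporter GAT3, fell by 0.36 (SE 0.086, limma adjusted p = 0.00807) at p14 and by 0.56 (SE 0.081, adjusted p = 6.15e-06) at p17 on the log2 scale. Slc38a1, a glutamine transporter of neurons, had -0.12 (adjusted p = 0.4 by limma) at p14 and fell by 0.39 (adjusted p = 4.95e-05) at p17. Glul, glutamine synthetase of Müller glia, fell by 0.98 (limma adjusted p = 8.21e-05) at p14 and by 0.47 (adjusted p = 0.0275) at p17. Shmt2, the mitochondrial enzyme that makes glycine from serine, rose by 0.35 (limma adjusted p = 0.0141) and 0.54 (adjusted p = 1.94e-05). Abat, which breaks down GABA and was named after its values were seen, fell by 0.48 (SE 0.096, limma adjusted p = 0.000606) at p17.

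Of the 9 genes of cholinergic synthesis and starburst cells, none was called by limma, edgeR or DESeq2 at p14, where 1 had an unadjusted p under 0.05 (17% of all genes), and 2 fell at p17 (5.12% of all genes). Slc5a7, the choline transporter that supplies Chat, had a log2 fold change of 0.25 (SE 0.13, limma adjusted p = 0.32) at p14 and of -0.41 (SE 0.12, adjusted p = 0.0178) at p17. It was the only gene of the list called for the difference between the ages (-0.66, SE 0.17, limma adjusted p = 0.0455), where 1.58% of all genes were called. In the other lists of the 92 genes, none was called for this difference. Isl1, a transcription factor of starburst, bipolar and ganglion cells, had -0.17 (limma adjusted p = 0.361) at p14 and -0.34 (adjusted p = 0.00515) at p17.

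Of 12 acetylcholine receptor genes, 3 fell and 1 rose at p14 (2.91% and 3.18% of all genes), and 4 fell and 2 rose at p17 (5.12% and 7.39% of all genes). The nicotinic subunits Chrna6 (-0.75, SE 0.097, limma adjusted p = 4.92e-06) and Chrnb3 (-0.80, SE 0.13, adjusted p = 0.000101) fell at p14 on the log2 scale. At p17 their log2 fold changes were -0.73 (limma adjusted p = 5.5e-07) and -0.88 (adjusted p = 2.34e-06). The muscarinic receptor Chrm2 fell by 1.01 (limma adjusted p = 1.01e-05) and by 0.98 (adjusted p = 1.3e-06). The subunit Chrnb4 went the other way and rose by 1.54 (SE 0.23, limma adjusted p = 3.95e-05) at p14 and by 0.90 (SE 0.21, adjusted p = 0.00358) at p17.

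Of 11 genes of dopamine synthesis, storage and breakdown, 1 fell at p14 (2.91% of all genes), and 3 fell and 1 rose at p17 (5.12% and 7.39% of all genes). The one called at p14 was Qdpr, which regenerates tetrahydrobiopterin (-0.40, limma adjusted p = 0.034), and its p17 value was -0.19 (adjusted p = 0.313). No gene of this list was called at p14 without the filter on low values or with quantile normalization. At p17, Gch1, the first enzyme of the synthesis of tetrahydrobiopterin, the cofactor of tyrosine hydroxylase, rose by 1.19 (SE 0.23, limma adjusted p = 0.000312). Slc18a2, the vesicular monoamine transporter VMAT2, had -0.53 (SE 0.17, limma adjusted p = 0.0343), and Nr4a2, a transcription factor of dopaminergic neurons, had -0.48 (SE 0.12, adjusted p = 0.00584). Of the 4 dopamine receptor genes, none was called by limma, edgeR or DESeq2 at p14, where 2 had an unadjusted p under 0.05 (17% of all genes). At p17 1 of the 4 fell and 1 rose (5.12% and 7.39% of all genes): Drd2 fell by 0.74 (SE 0.18, limma adjusted p = 0.0039) and Drd4, the receptor of photoreceptors, rose by 0.55 (SE 0.11, adjusted p = 0.000652).

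Of the other vesicular glutamate transporters, Slc17a6, carried by ganglion cells, fell by 0.46 (SE 0.085, limma adjusted p = 0.000628) at p14 and by 0.57 (SE 0.079, adjusted p = 3.74e-06) at p17, and Slc17a7 was not called at either age. Of 24 transcription factors of amacrine cells, 3 fell at p14 (2.91% of all genes) and 7 at p17 (5.12% of all genes), and none rose. Pax6 fell by 0.24 (SE 0.063, limma adjusted p = 0.0163) at p14 and by 0.26 (SE 0.059, adjusted p = 0.0022) at p17. Ebf1 fell at p14 (-0.45, limma adjusted p = 0.000993) and had -0.23 (adjusted p = 0.0667) at p17. Neurod4 (-0.44, limma adjusted p = 0.00277) and Prox1 (-0.49, adjusted p = 0.00471) fell at p17 and had -0.13 and -0.06 at p14.

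Of 18 genes that mark amacrine subtypes, 6 fell at p14 (2.91% of all genes), and 6 fell and 2 rose at p17 (5.12% and 7.39% of all genes). Gria3, an AMPA receptor subunit, fell by 0.53 at both ages (limma adjusted p = 0.000473 at p14 and 5.55e-05 at p17). The peptide genes Vip (-0.71, SE 0.13, limma adjusted p = 0.000442) and Crh (-2.07, SE 0.36, adjusted p = 0.00032) fell at p14 and had -0.27 (adjusted p = 0.166) and -0.48 (adjusted p = 0.435) at p17. The peptide gene Npy had 0.48 (limma adjusted p = 0.0985) at p14 and rose by 0.76 (SE 0.16, adjusted p = 0.000788) at p17.

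**Figure D5:**
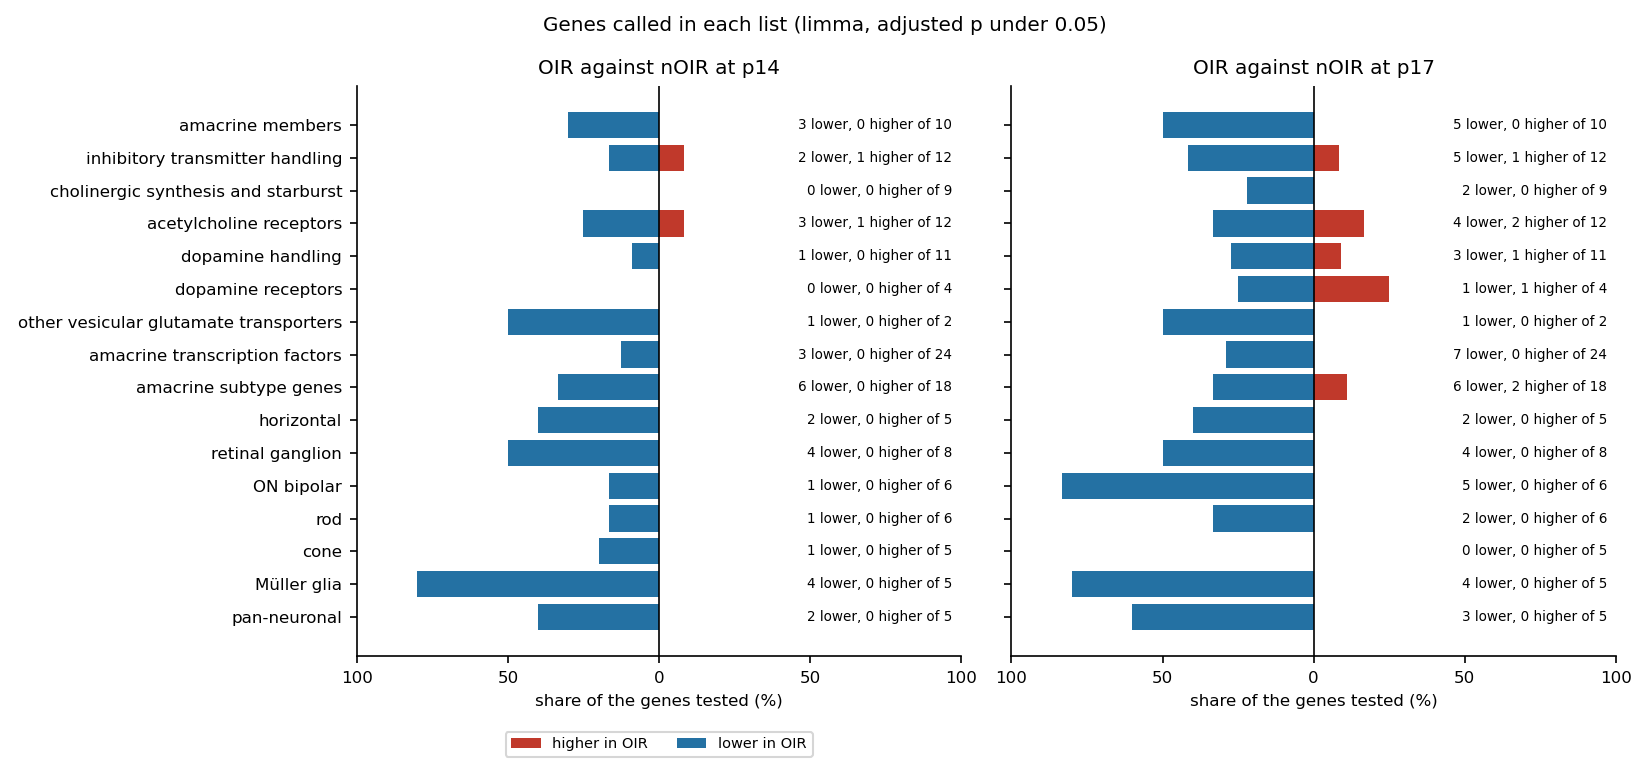
Share of the tested genes of each list (y axis) that were called lower (left of 0) or higher (right of 0) in OIR mice at p14 and p17 (x axis, in percent), with the counts at the right edge. The amacrine genes show 3 of 10 lower at p14 and 5 of 10 at p17, and most lists of other retinal neurons and that of Müller glia hold called genes in the same direction.

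Markers of other retinal cells moved with these results, where 2.91% of all genes were called lower and 3.18% higher at p14, and 5.12% lower and 7.39% higher at p17. Of 8 ganglion cell markers, 4 fell at each age, and their summed level went from 33589 to 42927 normalized reads in nOIR p14 to 27520 to 31604 in OIR p14, and from 39802 to 44070.4 to 26013 to 40444 at p17. Of 6 ON bipolar markers, 1 fell at p14 and 5 at p17, where the sum was 40672 to 45533 in nOIR and 27079 to 35487 in OIR. Of 5 Müller glia markers, 4 fell at each age, with p17 sums of 41773 to 49758 in nOIR and 26512 to 42913 in OIR. Of 5 horizontal cell markers, 2 fell at each age, with p17 sums of 15338 to 16817 in nOIR and 9556 to 14592 in OIR. Vascular markers went the other way at p17: all 5 pericyte markers rose, with sums of 2802 to 3510.4 in nOIR and 8511 to 11831 in OIR, and 4 of 5 endothelial markers rose. At p14, 3 of the 5 pericyte markers had fallen, and of the endothelial markers Cldn5 fell by 0.83 (limma adjusted p = 0.00035) and Pecam1 rose by 0.40 (adjusted p = 0.0322). Gfap, a filament of astrocytes and of reactive Müller glia, rose by 3.23 (limma adjusted p = 5.11e-08) at p14 and by 3.68 (adjusted p = 1.46e-10) at p17. The 2 astrocyte markers, Gfap and Pax2, summed to 409.7 to 1175 normalized reads in nOIR p14 and 2144 to 7735 in OIR p14, and to 339.9 to 803.4 in nOIR p17 and 2170.1 to 8804 in OIR p17. Of 5 microglia markers, 1 rose at p14 and 3 at p17, with p17 sums of 965.7 to 1122 in nOIR and 1814 to 3004 in OIR. Of 5 markers of neurons in general, 2 fell at p14 and 3 at p17, with p17 sums of 102613 to 110982 in nOIR and 78994 to 94838 in OIR, and Snap25 and Elavl4 fell at both ages. Of 6 rod markers, 1 fell at p14 (Gnat1) and 2 at p17 (Pde6b and Sag), and of 5 cone markers, 1 fell at p14 (Arr3), while at p17 0 were called by limma, edgeR or DESeq2 and 0 had an unadjusted p under 0.05 (23.3% of all genes). None of the markers in these lists was at 0 in all mice, and the part of these other cells in the amacrine gene results was not tested.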

How the data were processed

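Total RNA of whole retinas was sequenced as single reads after SMARTer amplification. Per the labels and the methods of the study, the authors aligned reads with STAR 2.7.8a, counted them per gene with featureCounts 2.0.1 without strand, dropped genes without any read and divided the counts of each mouse by its DESeq2 1.34 size factor. The deposited signal is therefore in normalized reads. The deposited table also holds the authors' group means, log2 fold changes and adjusted p-values, which were not used. Whole reads were recovered for 100% of values (tolerance 0.01), and total reads count PCR copies.

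The 10 genes and all lists were chosen with earlier results of these data known. Normalized reads plus a pseudocount of 1 were put on the log2 scale, and limma 3.58.1 (lmFit, eBayes with trend, R 4.3.3) was fitted to 4 groups over 27137 genes with a mean of at least 1, with Benjamini-Hochberg adjustment. Per the methods of the study, the mice came from 4 litters (OIR p14), 3 litters (OIR p17), 3 litters (nOIR p14) and 2 litters (nOIR p17). The litter of each mouse is not given in the sources used here, so litter was not modelled, and p-values treat littermates as if they were unrelated. No 2 mice of a group were copies (chi-square per degree of freedom of recovered reads at least 9.39). Ratios between genes were compared by exact permutation with scipy 1.17.1 (Python 3.11.15, pandas 2.3.3, numpy 2.4.6). In each list up to 4 called genes with the smallest adjusted p were named, and the 3 genes nearest in pattern were sought for each called member. Some genes that these rules would name are not reported here. Alternatives were a pseudocount of 0.1, no filter or a mean of at least 10, S4 included, only the compared groups, a replicate block, edgeR 4.0.16 and DESeq2 1.42.0 on recovered reads, quantile normalization, equal totals per mouse, Cryaa (log2) as a covariate, and fits without 1 mouse each. The fit was tested on simulated data with known changes. Promoter sequences are from RefSeq on GRCm38.p6. Human samples were not analysed here.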

Additional observations from a re-analysis of the deposited data

Results flagged for a closer look

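Of 40 groups of single-gene values, 2 held a mouse far from the others of its group by Dixon's test, and chance gives about 1 in 20. Slc6a9 in nOIR p17 mouse S3 was lowest, with 3392 normalized reads, which is still above the highest OIR p17 mouse. Chat in OIR p14 mouse S3 was lowest, with 515.3 normalized reads, and without this mouse the p14 log2 fold change of Chat was 0.10 (limma adjusted p = 0.709).

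The left-out nOIR p14 mouse S4 lay above all 6 nOIR p14 mice used for 4 of the 10 genes. It had 10705 normalized reads of Gad1, 2320.2 of Gad2, 4012 of Slc6a9 and 306.4 of Slc17a8. For 2 other genes S4 lay below all 6, with 258.8 normalized reads of Tfap2a and 3001 of Tfap2b. The share of all genes in which S4 lay above or below all 6 was not counted, so these counts only describe the 10 genes. With S4 included, 4 of the 10 genes were called at p14, all lower, as were 3.24% of all genes tested in that fit, and the added gene was Slc18a3 (-0.40, limma adjusted p = 0.0442).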

How the results depend on the processing

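Under the 11 alternatives that did not leave out a single mouse in turn, 3 to 4 of the 10 genes were called at p14 and 3 to 6 at p17, and with 1 mouse left out in turn the counts were 3 to 5 and 3 to 6. Over all genes tested, 1.68% to 4.55% were called lower at p14 and 3.07% to 7.89% at p17 under the 11 alternatives, and 2.15% to 3.06% and 4.01% to 5.89% with 1 mouse left out. Gad1, Slc6a9 and Slc17a8 were called at both ages under every one of these settings. The lowest p17 count, 3, came from rescaling each mouse to the same total, where the calls of Chat (-0.23, limma adjusted p = 0.128) and Slc18a3 were lost, and from leaving out nOIR p17 mouse S5, and the highest p14 count, 5, came from leaving out OIR p14 mouse S2. The p17 call of Chat was lost in 5 of the 11 alternatives and in 9 of 26 fits without 1 mouse. The p14 value of Chat turned to -0.016 with S4 included and ranged from -0.045 to 0.097 with 1 mouse left out, and that of Gad2 ranged from -0.104 to 0.00072. Of the genes of dopamine handling, 0 to 2 were called at p14. The cause of these changes was not tested. With a replicate block, 3 genes were called at p14 and 5 at p17, as without it. Mice with the same number did not deviate together (median r 0.01 over 34 pairs, 7 of them over 0.1), so the numbers do not pair the samples. Among the 10 genes, Th had the largest errors, and the differences of Gad2 and Slc32a1 could not be separated from the spread between mice.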

Other observations

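Within OIR mice, 11 of the 92 genes in the pathway and subtype lists were called between p14 and p17 by limma, beside 5.91% of all genes tested. The following were named after their values were seen. Among the peptide genes, Vip rose by 0.68 (SE 0.12, limma adjusted p = 0.000362) and Penk, which encodes enkephalin, rose by 0.76 (SE 0.16, adjusted p = 0.0028) on the log2 scale. The transcription factors Prox1 (-0.47, limma adjusted p = 0.0148), Neurod4 (-0.37, adjusted p = 0.0222), Zfhx3 (-0.41, adjusted p = 0.0341) and Isl1 (-0.41, adjusted p = 0.00189) fell, while the transcription factor Ebf2 rose by 1.55 (SE 0.41, limma adjusted p = 0.0173). Gldc, an enzyme of glycine breakdown, fell by 0.87 (SE 0.21, limma adjusted p = 0.00911), and Glul rose by 0.54 (SE 0.14, adjusted p = 0.0203). Within nOIR mice, 1 of the 92 genes was called over the same interval, beside 0.317% of all genes tested. It was Stx1a (-0.55, SE 0.12, limma adjusted p = 0.0364), a syntaxin of amacrine synapses.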
